A study of Mus musculus with 157 samples.

Results

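The regions described here are the 4208 sites listed by the authors as losing DOT1L when mouse macrophages met urate crystals, out of 25032 regions in 8 deposited region lists. All sites of that list were taken. They were chosen by the DOT1L signal itself, measured by chromatin immunoprecipitation and sequencing (ChIP-seq) in 3 PBS and 3 MSUc samples, so their loss of DOT1L is the rule and not a result, and no test of it was made. The other DOT1L list holds 4756 sites that gained signal. Each site came with the name of the gene whose start site lies nearest, and together they named 2722 genes, whose RNA was then followed in 8 experiments. The list gives a score of 0 for every site, so sites just inside and just outside the authors' threshold could not be told apart.

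DOT1L is the enzyme that methylates lysine 79 of histone H3. It works without a SET domain, is brought to transcribed genes by elongation factors of the AF9 (Mllt3), ENL and AF10 families, and leaves its mark over the bodies of active genes. SGC0946 is a small molecule that blocks its catalytic pocket. Monosodium urate crystals (MSUc) are the particles of gout. Macrophages take them up, and the uptake is known to stress the lysosome and to start an inflammatory programme.

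All cells were bone marrow-derived macrophages, grown from mouse femur and tibia marrow with M-CSF. C57BL/6 (WT), Tfeb-Tg, Bhlhe40-/- and Bhlhe41-/- cells were grown in DMEM with 16 ng/mL M-CSF. Tfe3KO cells and their Tfe3WT were also used. The titles tell these groups apart, while the genotype field reads Tfe3KO for both, and the protocols name neither. The Ampka1KO cells, which lack the catalytic alpha 1 subunit of AMPK, and their congenic WT came from 7- to 8-week-old mice and were grown in RPMI with 5 ng/mL. Ages of the other mice are not stated in the sources used here. Each particle was used at 250 ug/mL, with PBS as its control: MSUc, calcium pyrophosphate crystals (CPPD), silica nanoparticles, or aluminium hydroxide (alum). SGC0946 was present at 1 uM from day 0 of culture, so it covered differentiation too, and metformin was added before the particle. RNA groups held 2 or 3 libraries: 2 for each of PBS and MSUc at 10 min, 30 min, 1 h, 2 h and 5 h, 2 for silica, alum, SGC0946 in PBS, TfebWT in PBS and each Bhlhe group, and 3 for every other group used. The histone tables name 5 h in their headers, while exposure times of the DOT1L samples and of the RNA outside the time course are not given in the sources used here. What drives the Tfeb transgene is not given either.

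Genome sequence of the sites themselves was not used here. The promoters of 4 nearest genes are shown because the results below turn on their RNA: Mertk, a receptor for dying cells, Pald1, a phosphatase-like protein, and Inpp5d, the lipid phosphatase SHIP1, all of which fell with MSUc, and Slc7a11, the cystine transporter, the nearest gene with the largest rise. Each line gives the 250 bases before the start site, 5′ to 3′ on the gene's own strand, from RefSeq on GRCm38.p6, the assembly behind mm10. Capitals mark matches on either strand to any of 8 short motifs: the E-box CACGTG, the TFE3 and TFEB site TCACGTGA that contains it, the AP-1 site TGANTCA, the PU.1 site GAGGAAGT, the C/EBP site TTGCNNAA, the MAF-type core TGCTGA, the CCAAT box GATTGG and the GC box CCGCCC.
Mertk promoter, chr2:128698665-128698914, plus strand: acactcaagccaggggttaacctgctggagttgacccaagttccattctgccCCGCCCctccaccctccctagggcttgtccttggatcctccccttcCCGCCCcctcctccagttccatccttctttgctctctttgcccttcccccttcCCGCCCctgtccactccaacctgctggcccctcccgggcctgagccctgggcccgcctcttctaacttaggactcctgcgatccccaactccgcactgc
Pald1 promoter, chr10:61383340-61383589, minus strand: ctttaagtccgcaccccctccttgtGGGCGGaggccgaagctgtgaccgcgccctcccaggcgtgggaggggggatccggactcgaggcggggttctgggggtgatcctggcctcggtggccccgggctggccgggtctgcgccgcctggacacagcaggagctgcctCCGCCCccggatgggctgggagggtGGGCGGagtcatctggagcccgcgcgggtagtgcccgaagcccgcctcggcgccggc
Inpp5d promoter, chr1:87620062-87620311, plus strand: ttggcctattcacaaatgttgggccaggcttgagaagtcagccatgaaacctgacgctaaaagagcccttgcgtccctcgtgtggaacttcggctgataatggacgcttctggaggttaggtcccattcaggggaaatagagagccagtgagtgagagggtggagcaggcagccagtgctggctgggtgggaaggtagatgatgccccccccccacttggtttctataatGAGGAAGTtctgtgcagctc
Slc7a11 promoter, chr3:50443614-50443863, minus strand: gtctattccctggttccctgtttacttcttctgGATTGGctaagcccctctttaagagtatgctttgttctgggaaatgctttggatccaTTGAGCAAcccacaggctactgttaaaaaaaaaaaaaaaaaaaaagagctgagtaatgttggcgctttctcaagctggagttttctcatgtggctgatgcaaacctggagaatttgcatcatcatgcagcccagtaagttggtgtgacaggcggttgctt
Mertk and Pald1 each held 3 GC boxes and no other match. Inpp5d held a single PU.1 match, close to the start, and Slc7a11 a CCAAT box and a C/EBP match. None of the 4 windows held an E-box. A match is only a run of letters, and no match says only that these letters are absent from this window. Promoters were found for 2038 of the 2722 nearest genes. Some of these were expressed too low to test, so the shares below are not matched in expression to those of tested genes. The GC box was in 47.1% of the nearest genes' promoters, against 57.3% for genes tested in the time course and 32.7% for all promoters of the table. The E-box was in 7.79% of the nearest genes' promoters, against 8.61% and 6.02%, and the TFE3 and TFEB site in 0.979%, against 1.59% and 0.785%. The PU.1 match was in 2.79%, against 2.69% and 2.44%, and the AP-1 match in 5.98%, against 4.54% and 6.75%. The C/EBP match was in 9.15%, against 7.64% and 9.56%, the MAF-type core in 15%, against 12.8% and 16.1%, and the CCAAT box in 15.4%, against 18.8% and 14.6%.

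The reduced sites were mostly intronic or intergenic. Introns held 2033 of them (48.3%) and 1992 (47.3%) were intergenic, while 56 were in 3′ UTRs, 48 in exons, 43 at transcript ends, 35 in non-coding transcripts and 1 in a 5′ UTR. Of the intronic sites 626 (30.8%) were in intron 1. The site nearest to a start was 3045 bp away, and in the gained list it was 3011 bp, so neither DOT1L list holds sites closer to a start. The middle of the range was at 29.1 kb, with quartiles at 12.7 and 67.5 kb, and 56.7% of the sites lay on the downstream side of the start. Closer than 10 kb were 798 sites (19.0%), and 650 (15.4%) were beyond 100 kb. A site was 201 to 943 bp wide, with a median of 241 bp. Gained DOT1L sites, by the same annotation, were 50.8% intronic and 45.5% intergenic, close to the shares of the reduced sites. Low-complexity repeats differed: 53 reduced sites carried that label and 1 gained site. LTR retroelements overlapped 400 reduced sites (9.51%) and 376 gained sites (7.91%).

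Most genes had 1 reduced site. That was so for 1910 of the 2722 genes, while 470 had 2, 261 had 3 to 4, and 81 had 5 or more, which held 503 sites between them. The nearest gene was not always the gene that contains the site. Of 2151 sites inside a gene that could be named, 1515 (70.4%) lay in the same gene that was nearest. Gained sites were also nearest to 750 of the 2722 genes, and the other 1972 had reduced sites only. Protein-coding genes were nearest to 3461 sites (82.2%).

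The densest run followed a single long non-coding RNA. Neat1, the RNA scaffold of nuclear paraspeckles, was nearest to 22 sites, and with 1 site assigned to its neighbour Malat1 they formed 23 sites over 17.8 kb at chr19:5823715-5841514 (mm10). The sites were 4.07 to 19.0 kb downstream of the Neat1 start, nearly all annotated within its long transcript. The closest was annotated at the end of another Neat1 transcript. Ggta1, which makes the alpha-gal sugar epitope, had 6 of its 8 sites in intron 1, over 19.1 kb at chr2:35433532-35452680. Maf, which encodes the macrophage transcription factor c-MAF, had 10 sites 56.5 to 399 kb downstream of its start, the farthest of them in intron 8 of Wwox. Tcf7l2, a Wnt effector, had 8 of 9 sites in its own intron 4. Marcks, an actin-binding kinase substrate, had 8, all upstream, from 16.4 to 226 kb. Cited2, a transcriptional co-regulator, also had 8 upstream, from 62.2 to 238 kb, and 2 gained sites besides. Trps1, a GATA-type repressor, had 9 at 34.5 to 780 kb, and Zfp608, a zinc finger gene, had 8. Mertk had 5, all in its introns, among them chr2:128709580-128709793 in intron 1 of 18. The single Inpp5d site was at chr1:87658079-87658330 in intron 2 of 26, and the Pald1 site at chr10:61374197-61374411 in intron 1 of 19. The Slc7a11 site was intergenic, at chr3:50631358-50631683. The remaining genes with at least 8 sites were non-coding entries: Mir6388 with 13 and Gm17746 with 9 were listed at 0 in the RNA tables, and Mir5130, with 11, shares its locus with Kctd12 and its reads are uncertain.

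**Figure D1:**
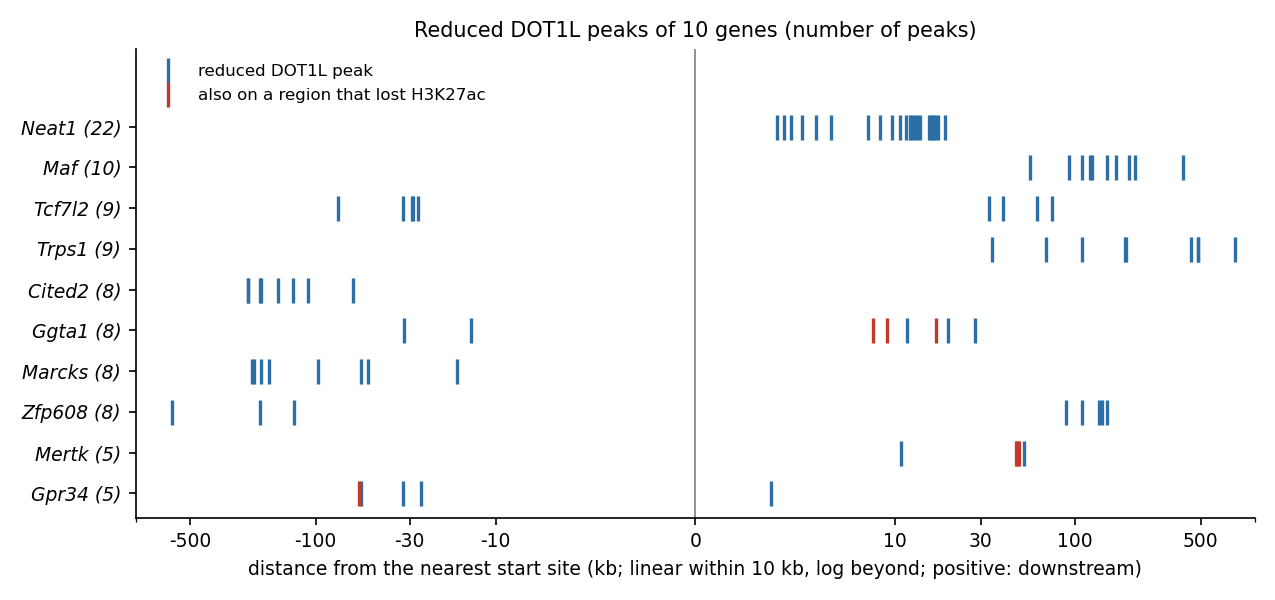
Distance of each reduced DOT1L site (tick) from the start of its nearest gene, in kb, for 10 genes, on an axis that is linear within 10 kb and logarithmic beyond. The 22 Neat1 sites lie between 4.07 and 19.0 kb downstream, the Maf sites between 56.5 and 399 kb downstream, and all Marcks and Cited2 sites upstream; red ticks lie on regions that also lost H3K27ac.

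Regions that lost histone marks coincided with some of these sites. H3K27ac marks active enhancers and H3K4me3 active starts, and the authors listed windows of accessible chromatin where each rose or fell at 5 h with MSUc. For H3K27ac the series holds 2 MSUc and 3 PBS libraries, and for H3K4me3 2 of each. With an overlap of at least 1 bp, 262 reduced DOT1L sites (6.23%) lay on windows that lost H3K27ac, which was 17.0% of those 1838 windows, and 15 sites (0.356%) lay on windows that gained it. Windows that lost H3K4me3 held 122 sites (2.90%), 16.4% of 868 such windows, and those that gained it held 3. Both losses met at 74 sites. Gained DOT1L sites showed the reverse, with 876 (18.4%) on windows that gained H3K27ac and 15 (0.315%) on windows that lost it. In the authors' deposited table the windows that lost H3K27ac under a reduced DOT1L site had a median log2 change of -1.27, against -1.26 for all windows that lost it. Mertk had 3 of its 5 sites, all in intron 4, on 1 window with a log2 change of -1.06 in that table, and Bmf had 2 of its 3, both in intron 3, on a window at -1.84. Ggta1 had 3 sites on windows at -1.03 and -1.37.

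Binding sites gained by the lysosomal regulators rarely fell on reduced DOT1L sites. TFEB and TFE3 are related transcription factors that move to the nucleus on lysosomal stress. The series holds 1 TFE3 library in MSUc and 2 in PBS, and for TFEB 2 in MSUc and 3 in PBS. Gained TFEB sites overlapped 19 reduced DOT1L sites (0.452%) and gained TFE3 sites 77 (1.83%), while among gained DOT1L sites 2213 (46.5%) and 1122 (23.6%) did. The reduced and gained DOT1L lists shared no base. These lists hold changed sites only, so sites bound without change by any of these factors are not part of the counts.

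The RNA of the nearest genes was measured separately from DOT1L, and at 5 h with MSUc it fell more often than that of other genes among those whose reduced sites stood alone. RNA levels are in TPM, transcripts scaled for length and library total. Changes are log2 ratios of TPM + 1 with their standard errors from limma, and "rose" or "fell" means a Benjamini-Hochberg adjusted p under 0.05 in limma over all genes tested. Of the 2722 genes 1770 were expressed highly enough to test at 5 h, and of the 952 that were not 293 were at 0 in every library of the time course. Of these 1770 genes 677 fell and 321 rose, 38.2% and 18.1%, beside 32.9% and 16.4% of all 12350 genes tested. The median log2 change was -0.28, and over all genes it was -0.23. Genes with reduced sites only fell in 522 of 1210 cases (43.1%) and rose in 143 (11.8%), with a median of -0.38. Genes that had both kinds of site fell in 155 of 560 (27.7%) and rose in 178 (31.8%), with a median of 0.06, and genes with gained sites only rose in 41.1% and fell in 16.0% of 1237.

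Genes with more reduced sites fell in larger shares. Among genes without a gained site 40.7% fell where there was 1 site, 44.3% with 2, 49.5% with 3 to 4, and 78.8% with 5 or more. The last class held 33 tested genes, of which 26 fell and 1 rose, with a median log2 change of -0.92. These genes were long, with a median span of 122 kb against 18.4 kb for all genes tested, while their median level in PBS was 15.3 TPM against 13.6. Gene length moved with the number of sites, and its part in the shares was not tested. Nearness went the same way: 48.4% of the genes whose closest site was within 10 kb fell, then 36.9% at 10 to 30 kb, 33.4% at 30 to 100 kb and 24.6% beyond 100 kb, while the share that rose went from 12.3% to 26.2%. These distance classes include genes with gained sites. From the closest class to the farthest the median PBS level went from 21.7 to 10.4 TPM and the median span from 31.1 to 78.8 kb. The part of level and span was not tested. Genes with a site on a window that lost H3K27ac fell in 98 of 160 cases (61.2%) and rose in 13, with a median of -0.77.

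How the libraries were scaled moved the level of these shares. Scaling by the median of ratios in place of the deposited TPM shifted the median of all genes by 0.24 on the log2 scale at 5 h. With it 25.0% of all genes rose and 20.4% fell, 26.7% of the nearest genes rose and 28.1% fell, and 19.0% and 31.5% of the genes with reduced sites only. Of the 33 genes with 5 or more reduced sites and none gained 21 still fell and 1 rose. For genes with a site on a window that lost H3K27ac the shares were 50.6% falling and 12.5% rising. The plot of shares by number of sites shows both scalings side by side.

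**Figure D2:**
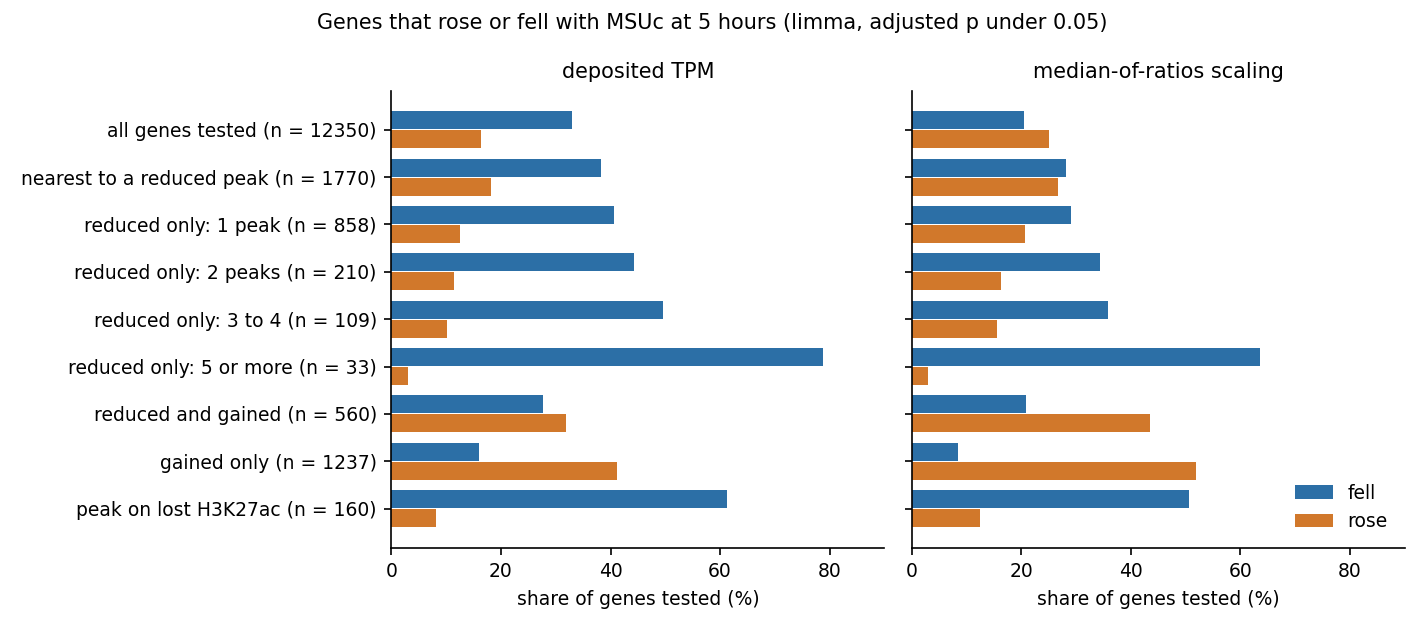
Share of tested genes (percent) that fell (blue) or rose (orange) with MSUc at 5 h, by the DOT1L sites they are nearest to, on deposited TPM (left) and after median-of-ratios scaling (right). On the left the blue bars of genes with reduced sites only lengthen from 40.7% with 1 site to 78.8% with 5 or more, against 32.9% for all genes.

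Over time the nearest genes rose first. At 10 min no nearest gene rose or fell in limma, with 38 of 1770 at an unadjusted p under 0.05, and of all genes 0.0486% rose and 0.0081% fell. At 30 min 25 (1.41%) rose and none fell in limma, 93 having an unadjusted p under 0.05, beside 0.68% and 0.0% of all genes. The first to rise included the chemokines Ccl2 (log2 3.52 ± 0.58), Ccl4 (2.96 ± 0.22) and Cxcl1 (2.85 ± 0.52), the kinase Plk2 (1.83 ± 0.13), the G protein brake Rgs1 (2.28 ± 0.26), the NF-kappaB cofactor Nfkbiz (1.77 ± 0.19) and the nuclear receptor Nr4a3 (1.31 ± 0.13). The Ccl2 call was lost without MSUc or PBS replicate 2, and that of Cxcl1 without any 1 of the 4 libraries. Every 30 min call rests on a spread shared by the whole time course: with the 4 libraries of that time alone none passed, and without MSUc replicate 1 or 2 or PBS replicate 1 the share that rose was 0.904%, 0.621% and 0.734%.

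Falls came later. At 1 h 61 rose (3.45%) and 19 fell (1.07%), beside 2.33% and 0.947%, but leaving out any 1 of the 4 libraries took the share that fell to between 0.282% and 0.452%, and with the 1 h libraries alone 0.0565% fell and 0.791% rose. Among the early falls was Bmf, a BH3-only cell death gene, at 6.6 and 7.9 TPM against 23.3 and 19.6 in PBS. Abcd2, a peroxisomal fatty acid transporter, was at 5.93 and 7.48 against 10.4 and 10.5 (-0.58 ± 0.12, adjusted p = 0.0167 in limma), a call that was lost with median-of-ratios scaling, and without PBS replicate 1 or 2 or MSUc replicate 1. At 2 h 237 rose (13.4%) and 428 fell (24.2%), beside 11.2% and 22.3% of all genes. After median-of-ratios scaling 19.4% rose and 16.1% fell, beside 16.5% and 12.1%, and with the 2 h libraries alone 5.99% rose and 6.95% fell. Sesn1, the stress sensor sestrin 1, had then reached -2.66 ± 0.36 and Maf -1.69 ± 0.35. Mertk was at 14.1 and 23.6 TPM against 38.8 and 32.3 (-0.92 ± 0.21), a call lost without MSUc replicate 1 (-0.57).

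**Figure D3:**
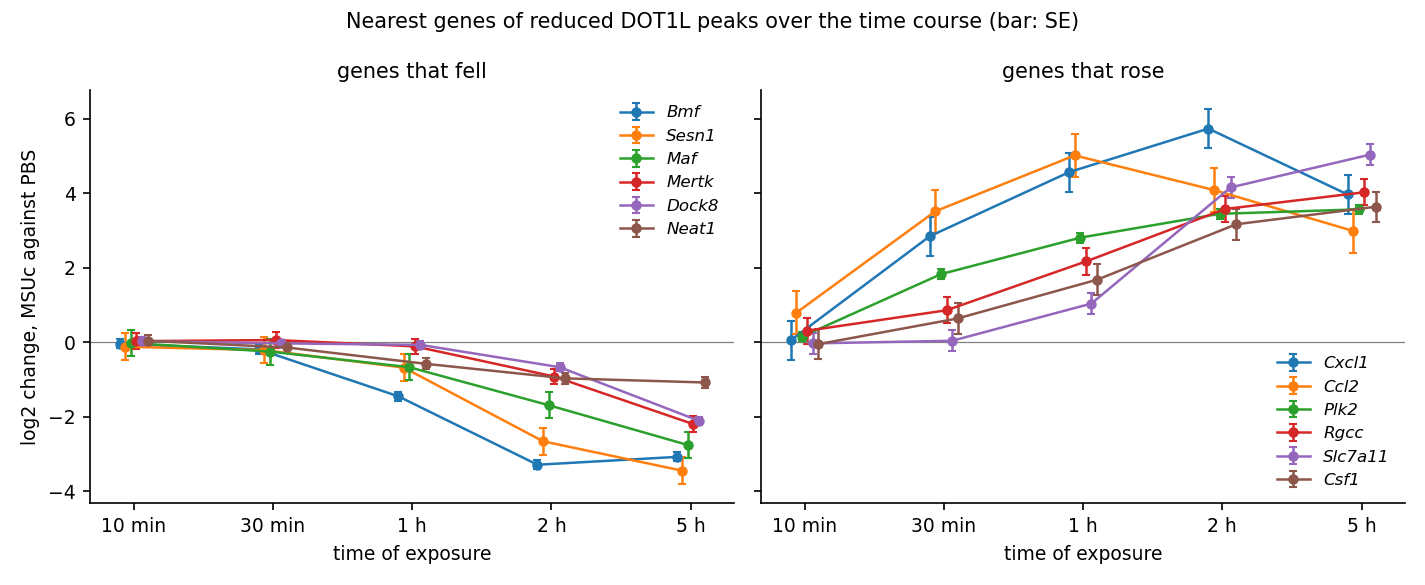
Log2 change (MSUc against PBS, bars are SE) at 10 min to 5 h for 6 nearest genes that fell and 6 that rose, each from 2 against 2 libraries. Cxcl1, Ccl2 and Plk2 had already risen at 30 min (2.85, 3.52 and 1.83), while Bmf was at -1.45 at 1 h and Maf and Mertk reached -2.76 and -2.20 at 5 h.

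Among the genes with the most sites, Maf fell farthest. At 5 h Maf was at 121 and 191 TPM in the PBS libraries and 21.1 and 22.2 in the MSUc libraries, and the groups stood far apart. Its log2 change was -2.76 ± 0.35 (adjusted p = 3.26e-05, limma). Neat1 was at 31.3 and 42.8 TPM in PBS and 17.1 and 16.4 in MSUc, again without overlap (-1.08 ± 0.15). Ggta1 went from 46.8 and 54.2 to 20.0 and 18.1 TPM (-1.36 ± 0.10), and Marcks from 206 and 236 to 108 and 122 (-0.94 ± 0.13). For both genes each MSUc library was below each PBS library. Mertk, with 5 sites, was at 36.5 and 34.8 TPM in PBS and 5.61 and 8.58 in MSUc (-2.20 ± 0.21), and these groups were also wide apart.

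Other site-rich genes did not follow. Cited2 was higher with MSUc, at 146 and 188 TPM against 87.6 and 107 (0.77 ± 0.23, adjusted p = 0.0128 in limma), but this call was lost without MSUc replicate 2 (0.59) or PBS replicate 1 (0.63). Tcf7l2 was at 5.00 and 6.36 TPM in PBS and 3.21 and 3.02 in MSUc, which did not overlap but missed the threshold (-0.69 ± 0.32, adjusted p = 0.0931 in limma). Trps1 was at 8.76 and 9.18 in PBS and 8.60 and 9.02 in MSUc (-0.02 ± 0.11), and Zfp608 at 2.55 and 3.78 against 3.29 and 2.10 (-0.18 ± 0.19), with overlapping groups for both. Of the 9 tested genes with at least 8 sites, the uncertain Mir5130 among them, 4 fell (44.4%), 1 rose and 4 did not pass, beside 32.9% of all genes falling. Mertk is not in that count.

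The largest falls at 5 h took in metabolic, stress and receptor genes. A called change of 1 or more on the log2 scale, a mean level of 5 TPM or above and no overlap of libraries were met by 337 nearest genes, of which 217 fell and 120 rose, 12.3% and 6.78% of those tested, beside 6.37% and 5.17% of all genes under the same rule. Sesn1 went from 79.1 and 117 TPM to 9.12 and 6.77 (-3.45 ± 0.36), and Pald1 from 36.7 and 43.1 to 4.24 and 2.61 (-3.23 ± 0.20). Bmf went from 23.0 and 21.6 to 1.83 and 1.68 (-3.08 ± 0.12). In these 3 genes the MSUc libraries were far below both controls. Hpgd, which breaks down prostaglandins, fell as well, from 19.7 and 94.9 to 4.45 and 2.13 (-3.43 ± 1.23, adjusted p = 0.035 in limma), but its PBS libraries were far apart. The Hpgd call was lost without PBS replicate 2 or either MSUc library (-2.32 in the first case). Abcd2 (-2.99 ± 0.12), the transcription factors Zfp395 (-2.98 ± 0.17) and Mxd4 (-2.96 ± 0.13), the lysosomal cholesterol sensor Gpr155 (-2.95 ± 0.19), the lysosomal transporter Slc46a3 (-2.84 ± 0.19) and Tifab, a TIFA-related adaptor (-2.72 ± 0.22), completed the list with Maf. Gpr34, a lipid receptor of macrophages, was at 6.66 and 18.4 TPM in PBS and 0.851 and 0.503 in MSUc (-2.87 ± 0.72). It lies inside Cask, which holds 4 of its 5 sites, and its call was lost without PBS replicate 2 (-2.20).

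Genes also rose beside reduced sites, and several of these had sites far away. Slc7a11, with its site 188 kb upstream and 4 gained sites, went from 0.295 and 0.512 to 63.4 and 31.9 TPM (5.04 ± 0.28). Edn1, the vasoconstrictor endothelin 1, went from 0.0770 and 0 to 18.3 and 16.8 TPM (4.16 ± 0.25), on a scale that understates changes of genes near 0, and its site was 70.9 kb downstream of the start, with 4 gained sites besides. Rgcc, a cell cycle regulator with a site 8.07 kb into the gene, went from 2.36 and 3.76 to 64.7 and 64.0 TPM (4.03 ± 0.35). For each of the 3 genes every MSUc library was above every PBS library. Plpp3, a lipid phosphatase (4.03 ± 0.25), Cxcl1 (3.97 ± 0.52), Dusp10, a MAP kinase phosphatase (3.82 ± 0.19), and Plk2 (3.57 ± 0.13) followed. Csf1, the macrophage growth factor itself, was at 3.22 and 1.45 TPM in PBS and 39.4 and 38.9 in MSUc (3.64 ± 0.41).

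**Figure D4:**
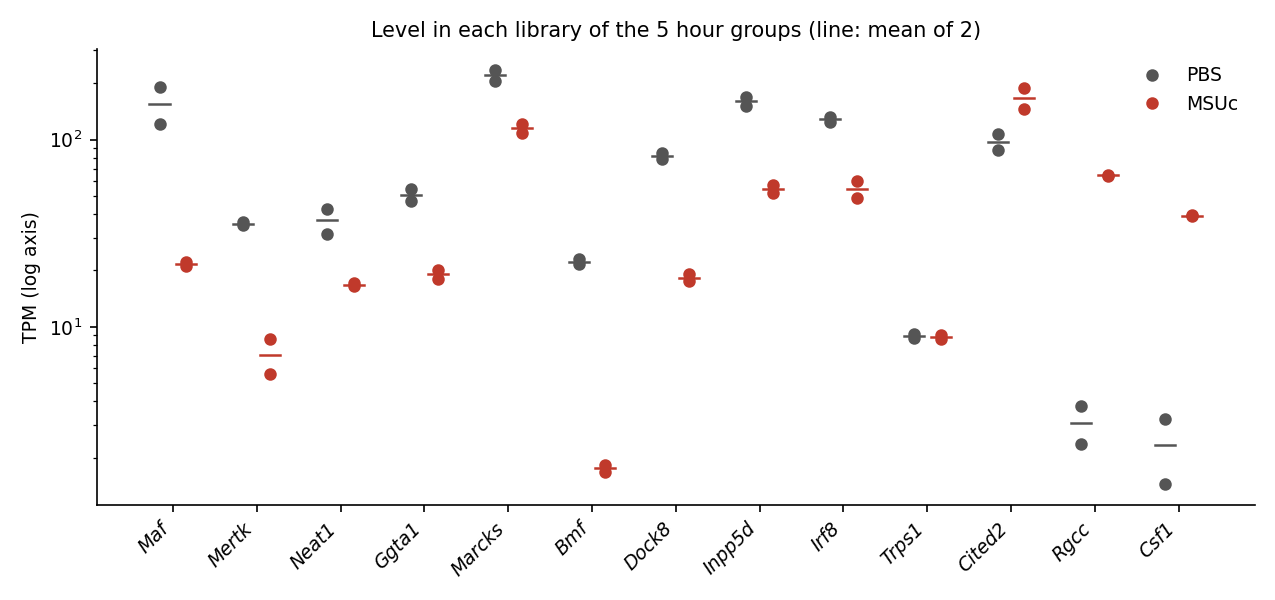
TPM (log axis) of 13 nearest genes in each of the 2 PBS and 2 MSUc libraries at 5 h, with a short line at each mean. Maf (121 and 191 against 21.1 and 22.2) and Mertk lie lower with MSUc, Trps1 lies at the same height, and Rgcc and Csf1 lie higher.

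Macrophage identity genes were the list with the most nearest genes. Of 13 tested, 8 fell and 1 rose, with a median of -0.78, and of the whole list of 21 13 fell and 1 rose, with a median of -0.71. After median-of-ratios scaling 7 of the 13 fell and 3 rose, and in the list 8 fell and 5 rose. Besides Maf and Mertk, the transcription factor Tcf4 went from 41.7 and 41.9 to 12.5 and 12.6 TPM (-1.66 ± 0.07) and Irf8, which directs monocyte development, from 133 and 124 to 48.7 and 60.1 (-1.23 ± 0.13). The summed level of 7 macrophage markers, of which Mertk, Lyz2 and Itgam are themselves nearest genes, fell in parallel, from 19200 and 25900 TPM to 12900 and 14300. In bulk RNA, fewer cells of a type and less RNA per cell cannot be told apart.

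Receptors for microbes and antibody went lower among the nearest genes. All 5 tested fell, with a median of -0.69, where the whole list had 14 of 23 lower and 4 higher (median -0.64). The inhibitory Fc receptor Fcgr2b was at 80.2 and 81.7 TPM in PBS and 46.0 and 39.6 in MSUc (-0.91 ± 0.09). Tlr1, a lipopeptide receptor (-0.80 ± 0.21), Tlr7, a receptor for single-stranded RNA (-0.51 ± 0.12), and Irak3, a brake on this signalling (-0.45 ± 0.12), fell by less. The Tlr1 and Irak3 calls were lost without MSUc or PBS replicate 2, and those of Tlr7 and Irak3 with median-of-ratios scaling (-0.25 and -0.20), under which 3 of the 5 and 9 of the 23 fell. Scavenger and efferocytosis receptors showed both directions: 5 of 9 tested nearest genes fell and 1 rose, with a median of -0.60, and 7 of 15 fell and 1 rose in the list, also with a median of -0.60. After median-of-ratios scaling 3 of the 9 fell (median -0.38) and 5 of the list did, with 1 rising in each. Scarb1, the HDL receptor, went from 85.1 and 82.2 to 41.6 and 39.1 TPM (-1.03 ± 0.11), and Lrp1, a large endocytic receptor, from 265 and 310 to 182 and 158 (-0.75 ± 0.18). Cd36, the receptor for oxidized lipid, rose from 191 and 213 to 609 and 448 (1.37 ± 0.17), and it was nearest to 9 gained sites beside 1 reduced.

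Signalling genes split in the same manner. Among 10 tested nearest genes of actin cytoskeleton signalling 4 fell and 1 rose (median 0.14), and in the list of 23 11 fell and 1 rose (median -0.29). After median-of-ratios scaling 4 of the 10 fell and 5 rose, and in the list 9 fell and 6 rose. Dock8, an activator of CDC42, went from 79.1 and 85.2 to 17.5 and 19.0 TPM (-2.11 ± 0.10), Arhgef6, an exchange factor for Rac, from 62.5 and 73.0 to 28.6 and 21.2 (-1.42 ± 0.16), and Arhgap15, which turns Rac off, from 22.9 and 22.3 to 6.78 and 12.1 (-1.22 ± 0.20). None of these 3 had a gained site. Fmnl2, a formin, had 10 gained sites and 1 reduced, and rose from 3.17 and 4.23 to 27.4 and 22.9 TPM (2.48 ± 0.29). Of 10 nearest genes of phosphoinositide and MAPK signalling 3 fell and 1 rose (median -0.06; after median-of-ratios scaling 2 and 2), and of 22 in the list 11 fell and 2 rose (median -0.36; after that scaling 8 and 5). Inpp5d fell from 151 and 170 to 51.9 and 57.4 TPM (-1.54 ± 0.11) and Pik3cg, the PI3K gamma catalytic subunit, from 23.2 and 30.6 to 12.6 and 9.12 (-1.24 ± 0.27). Plcl2, a phospholipase C-like protein, had 5 reduced sites and moved little (-0.34 ± 0.10), a call lost with median-of-ratios scaling (-0.09) and without MSUc or PBS replicate 1. Rasa2, a brake on Ras with 4 gained sites beside 1 reduced, rose (1.42 ± 0.17).

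Inflammatory, V-ATPase and glycolysis genes rose as lists, while the remaining lists had fewer calls or calls both ways. Nearest genes were 5 of 24, 3 of 16 and 4 of 17 in the rising lists, beside 1770 of all 12350 genes tested. Of 24 inflammatory genes tested 20 rose and none fell (median 2.61), and of the 5 that were nearest genes 4 rose (median 2.20): Ccl2, Ccl4, Cxcl1 and Nfkbiz. Ccl4 went from 38.5 and 48.4 to 158 and 259 TPM at 5 h (2.20 ± 0.22). The 16 subunits of the V-ATPase, the lysosomal proton pump, had 14 rising and none falling (median 0.54), and its 3 nearest genes, Atp6v0d1, Atp6v1b2 and Atp6v0d2, rose by 0.71 ± 0.10, 0.43 ± 0.08 and 1.30 ± 0.36, the last call being lost without MSUc or PBS replicate 2. Of 17 glycolysis genes 14 rose (median 0.94), 3 of them among 4 nearest genes (median 0.52): Pfkp (1.40 ± 0.07), Hk2 (0.42 ± 0.10) and Pfkl (0.62 ± 0.18, lost without MSUc or PBS replicate 1), while Eno1 was at 0.42 ± 0.22. Eno1 shares its locus with Eno1b and its reads are uncertain. Lysosomal genes of the CLEAR network, the targets of TFEB, had 4 of 26 rising and 5 falling (median 0.02). Of their 3 nearest genes the membrane protein Scarb2 went from 117 and 110 to 40.8 and 47.7 TPM (-1.34 ± 0.16) and Hexa from 829 and 832 to 644 and 724 (-0.28 ± 0.08, lost with median-of-ratios scaling, without MSUc replicate 1 and without either PBS library), while Ctsd did not pass (-0.33 ± 0.28). After median-of-ratios scaling 6 of the 26 rose and 2 fell. Interferon-stimulated genes had 4 of 17 rising, and their 2 nearest genes, Oasl1 and Usp18, did not pass (1.14 ± 0.59 and 0.77 ± 0.63). Of 19 genes of the DOT1L complexes and elongation factors 8 rose and 2 fell (median 0.28; after median-of-ratios scaling 14 and 1, median 0.52), and the single nearest gene among them, Mllt3, which encodes the DOT1L partner AF9, rose from 1.74 and 2.02 to 4.61 and 3.67 TPM (0.83 ± 0.14). Cell cycle genes had 1 of 17 rising and 1 falling, and their 1 nearest gene did not pass.

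The falls recurred in the 8 experiments that set MSUc against PBS in unmodified or vehicle-treated cells. In each of them 38.2% to 47.5% of the nearest genes fell, beside 32.9% to 44.9% of all genes, and 16.4% to 27.7% rose, beside 12.6% to 20.0%. The shares that fell were 39.4% beside 34.3% in the metformin vehicle, 42.9% beside 37.7% in the inhibitor vehicle, 46.2% beside 41.6% in Tfe3WT, 39.6% beside 32.9% in TfebWT and 44.7% beside 43.4% in the WT of the Bhlhe experiment. After median-of-ratios scaling, which raised the median of all genes by 0.14 to 0.33 on the log2 scale, 23.2% to 35.4% of the nearest genes fell and 24.5% to 38.8% rose. Under that scaling 16.5% to 28.2% of all genes fell and 20.1% to 30.4% rose. TfebWT MSUc replicate 3 carries PBS in its treatment field, and with it among the controls no nearest gene of 1713 passed in limma, 495 having an unadjusted p under 0.05, and of all 11991 genes 1 fell and none rose. In the congenic WT of the Ampka1 experiment the nearest genes fell less often than all genes, 41.1% against 43.9%. Genes with reduced sites only fell in 42.6% to 54.0% and those with 5 or more such sites in 68.8% to 85.3%, or 34.4% to 76.5% after median-of-ratios scaling, the lowest in both cases in the Ampka1 experiment. Of 1615 nearest genes tested in all 8 experiments 339 (21.0%) fell in every one and 152 (9.41%) rose in every one, beside 16.8% and 7.72% of 11186 genes. After median-of-ratios scaling the counts were 181 (11.2%) falling and 234 (14.5%) rising, beside 7.41% and 12.8%. Reduced sites alone marked 1085 of these genes, of which 273 (25.2%) fell in all 8 and 50 rose. Of 31 genes with 5 or more, 16 fell in all 8 and none rose. After median-of-ratios scaling 151 of the 1085 (13.9%) fell in all 8 and 91 rose. Of the 31 genes 4 (12.9%) then fell in all 8 and none rose, beside 7.41% of all genes falling. Maf, Sesn1, Pald1, Bmf, Abcd2, Zfp395, Mxd4, Gpr155, Hpgd, Slc46a3 and Tifab were among those falling in every experiment, and Slc7a11, Edn1, Rgcc, Plpp3, Cxcl1, Dusp10, Csf1 and Plk2 among those rising.

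Maf and Mertk, followed library by library, fell with crystals in each further experiment shown. In the particle experiment Maf was at 203, 181 and 191 TPM in PBS and 35.2, 22.0 and 21.5 in MSUc (-2.86 ± 0.19), and Mertk at 32, 27 and 30.4 and then 3.66, 3.65 and 3.59 (-2.73 ± 0.13). The groups were wide apart in both genes. Mertk went from 38.5, 34.4 and 40.5 TPM to 5.08, 5.28 and 2.16 with MSUc in the vehicle group of the inhibitor experiment (-2.97 ± 0.23). In the Ampka1 experiment the Mertk libraries were much closer, at 15.8, 15.4 and 16.4 in PBS and 13.6, 10.8 and 12.8 in MSUc (-0.34 ± 0.13, adjusted p = 0.0381 in limma), a call lost without any 1 of 5 libraries and with median-of-ratios scaling (-0.01).

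Other particles moved the nearest genes in part the same way. The 4 particles share their 3 PBS libraries, so their values are set side by side and are not independent of each other. With CPPD 22.7% of the nearest genes rose and 40.1% fell, beside 16.6% and 35.8% of all genes, and with silica 26.1% and 45.6%, beside 24.4% and 43.9%. With alum 34.1% rose and 17.4% fell, beside 27.1% and 19.2%. The split depends on scaling: by median of ratios 31.0% rose and 29.3% fell with CPPD, 38.4% and 33.0% with silica, and 27.9% and 21.9% with alum, where all genes shifted by 0.22, 0.36 and -0.11. Of all genes 25.1% rose and 21.7% fell by that scaling with CPPD, 35.6% and 31.7% with silica, and 21.8% and 23.2% with alum. Maf was at 50.8, 36.3 and 45.7 TPM with CPPD, 61.9 and 45.7 with silica and 110 and 91.0 with alum, all below the 181 to 203 of PBS (-2.10 ± 0.19, -1.83 ± 0.21 and -0.93 ± 0.21). Mertk was at 9.06, 8.37 and 10.8 with CPPD and 11.4 and 7.84 with silica, each far below PBS (-1.57 ± 0.13 and -1.55 ± 0.15). With alum it was at 22.0 and 24.6, which missed the threshold (-0.34 ± 0.15, adjusted p = 0.0769 in limma) but passed with median-of-ratios scaling (-0.45).

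The particles differed in which nearest genes passed and in which direction. Cited2 fell from 111, 97.1 and 108 TPM to 59.5, 58.6 and 62.5 with CPPD (-0.80 ± 0.10) and to 61.6 and 46.3 with silica (-0.97 ± 0.12). Tlr1 rose from 26.0, 22.1 and 28.1 to 51.1, 46.6 and 45.8 with CPPD (0.89 ± 0.15) and to 55.7 and 51.9 with silica (1.06 ± 0.17). Its change with alum was smaller (0.45 ± 0.17), and that call was lost with median-of-ratios scaling (0.34) or without any 1 of 4 libraries. Tlr7 rose with CPPD (0.81 ± 0.11) and silica (0.96 ± 0.12), and Irak3 (0.84 ± 0.11) and Fcgr2b (1.05 ± 0.28) with CPPD. With MSUc in the same experiment Tlr1 fell (-0.52 ± 0.15), a call lost with median-of-ratios scaling (-0.21), while Tlr7 (-0.14 ± 0.11), Irak3 (-0.15 ± 0.11) and Fcgr2b (-0.24 ± 0.28) did not pass. Without MSUc replicate 1 Fcgr2b did pass (-0.67). All 4 had fallen with MSUc at 5 h in the time course. Trps1 rose with alum, from 13.3, 12.3 and 13.9 to 22.8 and 20.2 TPM (0.67 ± 0.11). Neat1 was at 119 and 126 TPM with alum against 103, 83.0 and 106 (0.33 ± 0.14), short of the threshold. The differences between particles were not tested.

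**Figure D5:**
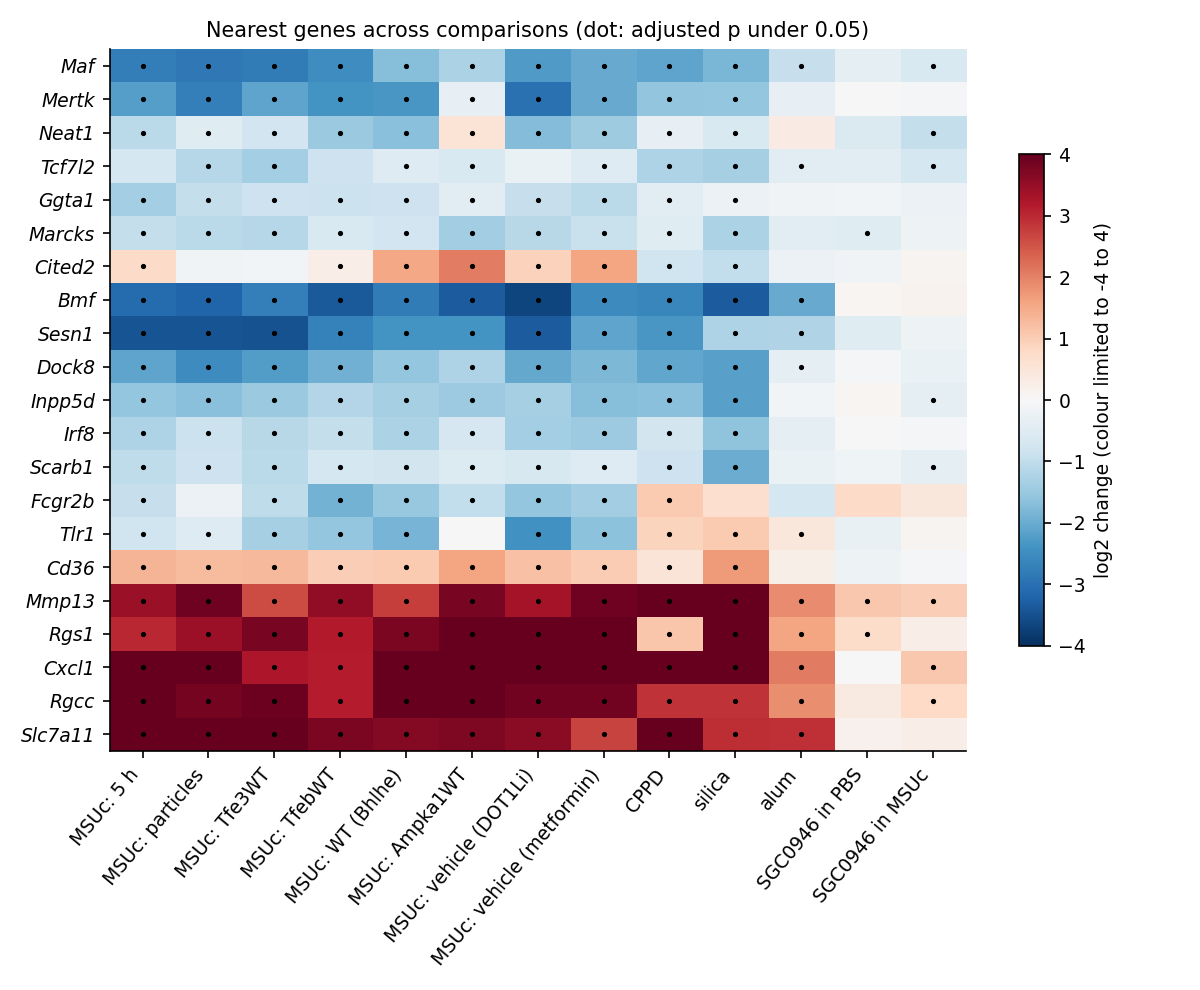
Log2 change of 21 nearest genes (rows) in 13 comparisons (columns: MSUc in 8 experiments, CPPD, silica and alum against PBS, and SGC0946 against vehicle in PBS and in MSUc); red is higher, blue lower, and a dot marks an adjusted p under 0.05 in limma. Maf is blue in all 11 particle columns (-2.10 with CPPD, -0.93 with alum), while Tlr1 is red with CPPD (0.89) and silica (1.06).

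Blocking the catalytic site of DOT1L asked whether these genes depend on the enzyme's activity. In PBS few genes changed with SGC0946: 7 nearest genes rose and 10 fell of 1761 tested, 0.398% and 0.568%, beside 0.438% and 0.235% of all genes. The Malat1 and Neat1 neighbours were at 107 and 96.2 TPM against 202, 93.6 and 167 (-0.53 ± 0.24, adjusted p = 0.452 in limma) and at 28.7 and 24.9 against 53.5, 29.6 and 42.3 (-0.59 ± 0.21, adjusted p = 0.294). Fatty acid-binding Fabp5 (0.68 ± 0.12), Rgs1 (0.72 ± 0.12), the stress gene Gadd45g (0.84 ± 0.14) and the collagenase Mmp13 (1.09 ± 0.18) rose, and Marcks was lower, at 116 and 120 TPM against 179, 158 and 157 (-0.48 ± 0.09). The counts rest on single libraries: without SGC0946 replicate 2 or 3 or vehicle replicate 1 no nearest gene passed, and without vehicle replicate 2 or 3 at most 0.17% did in a direction. These 5 calls were each lost without SGC0946 replicate 2 or 3 and without vehicle replicate 1.

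In MSUc more of them passed, and the nearest genes fell more often than they rose. Of 1761 nearest genes 238 fell and 113 rose, 13.5% and 6.42%, beside 9.24% and 7.39% of all genes. After median-of-ratios scaling 11.2% fell and 7.61% rose, beside 7.38% and 8.70%. Without SGC0946 replicate 1, 2 or 3 the share that rose was 3.75%, 4.09% and 3.86%, and without replicate 1 or 3 the share that fell was 8.35% and 7.72%. Genes that also had gained sites fell in 116 of 567 cases and rose in 35. Of the genes with reduced sites only 122 of 1194 fell (10.2%) and 78 rose, which median-of-ratios scaling evened out to 94 and 94. Of the 35 with 5 or more reduced sites and none gained 8 fell and 1 rose under either scaling. This comparison uses the same vehicle MSUc libraries as that of MSUc with PBS in vehicle, so the 2 are not independent. Depth differed as well: the vehicle MSUc libraries held 6.63M, 2.83M and 3.54M reads and the SGC0946 MSUc libraries 11.5M, 12.2M and 8.64M. The part of depth in these counts and in genes with low TPM was not tested. The largest falls included both RNAs of the densest run: Malat1, which organizes nuclear speckles, was at 95.7, 92.0 and 104 TPM in vehicle and 40.1, 42.7 and 34.9 with SGC0946 (-1.29 ± 0.22, adjusted p = 0.00391 in limma), and Neat1 at 13.4, 10.4 and 11.1 and then 5.35, 5.68 and 5.47 (-0.95 ± 0.19). The groups did not overlap in either. How fully the poly-A libraries captured Malat1 and the long Neat1 transcript was not tested. The membrane protein gene Tmem230 (-0.99 ± 0.20), Nav2, a cytoskeletal regulator (-0.91 ± 0.14), the adenylyl cyclase Adcy9 (-0.89 ± 0.17) and the transcription factor Rreb1 (-0.85 ± 0.18) fell as well.

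Maf, Tcf7l2 and Inpp5d were lower with the inhibitor than with MSUc alone. Maf was at 20.9, 21.1 and 26.7 TPM in vehicle and 14.5, 16.7 and 12.5 with SGC0946 (-0.62 ± 0.12). Tcf7l2 was at 9.18, 10.8 and 10.1 and then 4.49, 6.90 and 6.23 (-0.70 ± 0.19), a call lost without any 1 of 4 libraries. Inpp5d was at 52.4, 53.0 and 51.9 and then 38.2, 38.7 and 42.1 (-0.40 ± 0.07). In each of the 3 genes all inhibitor libraries were below all vehicle libraries. Pald1, at 0.150 to 0.718 TPM in vehicle, was higher instead, at 1.05, 1.82 and 1.13 (0.73 ± 0.21), a call lost without any 1 of 5 libraries. Dot1l itself, nearest to no reduced site and to 5 gained ones, was at 215, 242 and 215 TPM in vehicle and 158, 160 and 150 with SGC0946 (-0.52 ± 0.07). In the time course it had risen with MSUc from 32.7 and 36.8 to 191 and 170 TPM (2.34 ± 0.12).

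Few nearest genes of the inflammatory list passed with the inhibitor in MSUc: of 5 tested 1 rose, the chemokine gene Cxcl1, and none fell, and of 24 in the list 4 rose and 1 fell. Cxcl1 was at 20.1, 16.2 and 21.6 TPM in vehicle and 31.8, 39.7 and 56.6 with SGC0946 (1.08 ± 0.30). Outside that list, Edn1 was at 20.7, 24.1 and 25.6 and then 38.4, 44.4 and 43.6 (0.82 ± 0.16), and Rgcc at 67.0, 43.2 and 57.6 and then 97.8, 96.8 and 94.3 (0.79 ± 0.23). The groups were apart in all 3, but the Cxcl1 call was lost without any 1 of 5 libraries and that of Rgcc without all but vehicle replicate 1. Fabp5 (1.26 ± 0.11), Gadd45g (1.30 ± 0.13) and Mmp13 (0.97 ± 0.16) rose as in PBS. Fabp7, a relative of Fabp5 with 3 sites in neighbouring Pkib (1.78 ± 0.52), and Cystm1, a small membrane protein gene (2.10 ± 0.58), had scattered vehicle libraries, from 0.673 to 9.49 and from 1.73 to 13.7 TPM. Without vehicle replicate 2 their changes were 1.14 and 1.39, and neither passed. The Fabp7 call was also lost without any 1 SGC0946 library or vehicle replicate 1, and that of Cystm1 without SGC0946 replicate 1 or 3.

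Whether the inhibitor changed the response to MSUc was tested as an interaction, and no nearest gene passed in limma, with 226 of 1761 at an unadjusted p under 0.05. Of all genes 0.0325% rose and 0.0% fell in that test. Malat1 was at -0.76 ± 0.33, Neat1 at -0.37 ± 0.28 and Maf at -0.25 ± 0.18. The larger number of calls in MSUc than in PBS is thus not shown to be a difference in effect, and the PBS side had 2 SGC0946 libraries.

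In the genetic experiments the targeted genes were read first. With MSUc the libraries labelled Tfe3KO had Tfe3 at 84.9 to 87.3 TPM against 79.7 to 83.3 (in PBS 66.7 to 70.0 against 94.2 to 104), and those labelled Ampka1KO had Prkaa1 at 26.5 to 31.0 against 21.2 to 23.3, so with MSUc neither targeted RNA was lower under its knockout label. Reads outside a deleted part would check nothing. Tfeb was at 201 to 299 TPM in the Tfeb-Tg cells against 25.5 to 30.7, Bhlhe40 at 10.7 to 17.1 in Bhlhe40-/- cells against 287 to 313, and Bhlhe41 at 49.5 to 50.3 in Bhlhe41-/- cells against 90.1 to 94.9. All comparisons that follow are within MSUc. In the libraries labelled Tfe3KO 105 nearest genes rose and 139 fell, 5.73% and 7.58%, beside 4.10% and 6.63% of all genes, and 2.89% to 3.71% rose without Tfe3KO replicate 2 or 3 or Tfe3WT replicate 3. Marcks was at 108, 119 and 113 TPM there against 91.8, 94.5 and 90.8 (0.29 ± 0.07), a call lost without Tfe3KO replicate 2. In Tfeb-Tg cells 79 rose and 42 fell, 4.61% and 2.45%, beside 2.04% and 1.43%. Without TfebWT replicate 1 or 3 2.92% and 2.98% rose, and without TfebTg replicate 3 or TfebWT replicate 1, 2 or 3 1.11% to 1.58% fell. Plpp3 was at 62.3, 63.2 and 62.0 TPM against 27.5, 26.6 and 28.5 (1.16 ± 0.09) and Fabp7 at 1.24, 0.605 and 0.149 against 5.07, 8.40 and 5.19 (-2.14 ± 0.25). The groups did not overlap in either. Sesn1 was at 14.2, 9.56 and 11.7 against 5.41, 6.46 and 7.74 (0.76 ± 0.15), a call lost without any 1 of 4 libraries. Without Bhlhe40 1 nearest gene fell and none rose in limma, with 123 of 1731 at an unadjusted p under 0.05, beside 0.0165% and 0.0% of all genes. Without Bhlhe41 27 rose and 13 fell, 1.56% and 0.751%, beside 0.848% and 0.478%, but without either Bhlhe41-/- library or WT replicate 1 at most 0.173% rose and none fell in limma.

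The libraries labelled Ampka1KO differed from their WT over most genes. Among the nearest genes 812 rose and 537 fell, 44.7% and 29.6%, beside 51.6% and 20.2% of all genes, and median-of-ratios scaling, which shifted all genes by -0.48, turned this to 28.0% rising and 46.1% falling, beside 31.5% and 36.4%. The 7 macrophage markers summed to 7490 to 9740 TPM there and to 25400 to 30900 in the WT. The stromal list summed to 2370 to 2980 TPM against 66.8 to 217 and the neutrophil list to 267 to 310 against 10.7 to 58.0, with no stromal marker at 0 in either group. The part of these markers in the gene values was not tested. Irf8 was at 9.12, 10.0 and 6.75 TPM against 36.6, 35.2 and 34.2 (-1.93 ± 0.12). Csf1 was at 1408, 1211 and 1260 against 180, 156 and 166 (2.94 ± 0.11), and Mxd4 at 31.6, 31.2 and 23.6 against 8.36, 6.97 and 7.42 (1.79 ± 0.13). The groups were far apart in all 3 genes, and each kept its call after the other scaling.

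Metformin, an antidiabetic drug that acts on mitochondria and AMPK, also moved many of these genes in MSUc. Of the nearest genes 475 rose (26.8%) and 329 fell (18.6%), beside 29.6% and 14.0% of all genes. After median-of-ratios scaling, which shifted all genes by -0.16, 18.1% rose and 29.3% fell, beside 19.7% and 21.6%. Tifab, low with MSUc in vehicle at 0.974, 0.602 and 0.606 TPM, was at 5.25, 4.40 and 4.60 with metformin (1.74 ± 0.14), and Plcl2 at 20.7, 23.3 and 27.8 against 6.25, 8.84 and 7.72 (1.54 ± 0.13). Hpgd was lower still, at 1.66, 1.26 and 1.06 against 4.17, 3.89 and 4.49 (-1.16 ± 0.15). In each of the 3 the groups were apart. Marker sums moved in the same libraries: with metformin the 7 macrophage markers summed to 12500 to 15100 TPM against 18200 to 21500 in vehicle, the stromal list to 156 to 341 against 477 to 608, the dendritic cell list to 4.39 to 4.94 against 5.13 to 6.90, and the mast cell list, with 2 of its 5 genes, Mcpt4 and Tpsb2, at 0 in both groups, to 10.9 to 19.7 against 2.33 to 5.97. The part of these markers in the gene values was not tested.

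Across the series the libraries used, 115 in all, held 2.12M to 22.1M reads on the listed transcripts, with a median of 10.1M, as worked out from the steps between low values. Markers of other cell types were near 0 at 5 h in the time course: the neutrophil list summed to at most 13.8 TPM with Ly6g at 0, B and T cell lists to at most 0.317, and all 3 erythroid markers were at 0. Neutrophil sums were higher in some other experiments. With MSUc they were 388 to 531 TPM in Tfe3WT against 218 to 330 in Tfe3KO, and 42.1 to 47.9 in WT against 169 to 175 in Bhlhe41-/- cells. With silica they were 232 to 333 TPM against 40.7 to 94.6 in PBS. With MSUc the stromal list summed to 395 to 547 TPM in Tfe3WT and 183 to 631 in Tfe3KO. What part these sums had in the gene values was not tested. The stromal list summed to 42.3 to 83.9 TPM in the inhibitor experiment, against 2.10 to 11.8 at 5 h in the time course, and to 56.2 to 83.9 in vehicle and 56.7 to 63.4 with SGC0946 in MSUc. The mast cell list went from at most 0.785 TPM in PBS to 6.47 and 11.2 in MSUc at 5 h, with 4 of its 5 genes at 0, and the dendritic cell list from at most 0.919 to 4.50 and 5.49. The labels say nothing of separate cultures or animals for replicates, so the p-values measure the spread between these samples, which may be technical.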

How the data were processed

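RNA was measured by poly-A, strand-specific RNA-seq and DOT1L, TFEB, TFE3, H3K27ac and H3K4me3 by ChIP-seq. The authors deposited RNA tables whose values are named TPM per the file headers. STAR, HOMER and mm10 are named, without versions, per the submitters' processing notes. The authors' deposited region lists carry a peak score, which is 0 for every site, so no stricter threshold could be tried and the naming rule by score could not be applied. They also carry a log2 fold change per histone region, which the authors calculated over windows around accessible chromatin at 5 h, per the file headers. How peaks were called is not given in the sources used here.

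TPM were tested as log2(TPM + 1) with limma 3.58.1 (R 4.3.3, trend), fitting each experiment once over all its groups, keeping genes that reached 1 TPM in a number of libraries equal to the size of its smallest group, and two-sided Benjamini-Hochberg adjusted p under 0.05. Overlaps used bedtools 2.31.1, and tables and figures Python 3.11.15, pandas 2.3.3, numpy 2.4.6 and matplotlib 3.10.9. The code was tested on simulated data. Genes are named if at least 8 reduced sites name them, if they are among the 12 largest falls or 8 largest rises at 5 h or the 6 largest changes each way with SGC0946, or by gene list. Dot1l and the targeted genes are named too. So are the 10 nearest genes with the largest median change among those called the same way with MSUc in all 8 experiments. Short RNAs and genes with near-identical copies were left out, except microRNA entries given for their number of sites and Eno1, whose reads are uncertain. Members and lists were chosen with earlier results of these data known. Samples were grouped by title. The libraries labelled Tfe3WT carry Tfe3KO in their genotype field. Left out were 26 histone signal columns and 2 expression columns without a matching sample, labelled silica and SGC0946 in PBS. Alum replicate 3 is a listed sample without an expression column. Whether the spare silica column belongs to it is not given. Alternatives were the pseudocount, no filter, scaling, the compared groups alone, a replicate block, each library left out, and other links of sites to genes. Genes that hold a site and the crossed pairing were added after seeing the data.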

Additional observations from a re-analysis of the deposited data

Results flagged for a closer look

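Neat1, Trps1, Fabp5 and Nfkbiz passed the test with MSUc in opposite directions in different experiments. The experiments are separate, Ampka1WT cells were grown in another medium with less M-CSF, and none of these differences was tested.

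Neat1 rose in 1 experiment and fell in the other 7. In Ampka1WT cells it was at 7.02, 5.63 and 5.39 TPM in PBS and 8.09, 9.8 and 9.9 in MSUc (log2 0.55 ± 0.13), and in the inhibitor vehicle at 53.5, 29.6 and 42.3 and then 13.4, 10.4 and 11.1 (-1.73 ± 0.19), a difference of 2.28. Neat1 was thus much lower in the PBS libraries of the Ampka1 experiment.

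Nfkbiz rose in 5 experiments, most in Ampka1WT (1.53 ± 0.16), and fell in Tfe3WT (-1.35 ± 0.12), a difference of 2.88. Fabp5 rose in Tfe3WT (0.75 ± 0.14) and fell in 2, most in the inhibitor vehicle (-0.90 ± 0.11), a difference of 1.65. Trps1 rose in the WT of the Bhlhe experiment (0.69 ± 0.14) and fell in Ampka1WT (-0.26 ± 0.10), a difference of 0.95, and the Ampka1WT value depends on the scaling.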

How the results depend on the processing

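Shares of nearest genes had 652 values under alternatives for 48 results, of which 561 stayed within 1.5 times. Overlaps had 14, of which 12 did, and named genes 1445 values for 153 results, of which 1281 kept direction and call, 151 lost the call and 12 gained it. The cause of a change was not tested, except that fewer libraries or genes enter some alternatives. The direction turned once: Trps1 in Ampka1WT went from -0.26 to 0.08 with median-of-ratios scaling.

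With the compared groups alone, no nearest gene (0.0%) passed at 30 min or for SGC0946 in PBS in either direction, and 0.0% fell without Bhlhe40, or rose or fell without Bhlhe41. Then 0.791% rose and 0.0565% fell at 1 h, 5.99% and 6.95% at 2 h, 3.24% and 6.87% with SGC0946 in MSUc, 2.78% and 4.31% for Tfe3KO and 2.51% and 0.934% for TfebTg, and 17.7% rose with metformin. Median-of-ratios scaling gave 16.1% falling at 2 h, 23.2% in TfebWT, 28.7% in the WT of the Bhlhe experiment and 29.3% with metformin, and 28.0% rising and 46.1% falling for Ampka1KO. Without a filter 0.346% fell with SGC0946 in PBS, 3.84% rose and 8.98% fell with it in MSUc, 0.0432% fell in the interaction, 3.48% rose and 5.04% fell for Tfe3KO, and 0.929% and 0.338% for Bhlhe41. A pseudocount of 0.25 gave 0.0568% rising in the interaction. With genes that hold a site 0.0% rose at 30 min, 0.937% at 1 h, 0.187% with SGC0946 in PBS and 2.99% in MSUc, and with sites in introns, exons or UTRs 0.185%, 1.38% and, in PBS, 0.0929%. With both of these, and with sites within 50 kb, 0.0% fell for Bhlhe40, and with the second 0.378% fell for Bhlhe41. With TfebWT MSUc replicate 3 as PBS 0.0% rose or fell there. With centres at most 1000 bp apart 0.475% of the sites met gained DOT1L sites and 1.19% gained TFEB sites.

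Replicate numbers were not used to pair samples in the main fits, and no contrast with 3 pairs had every correlation over 0.1. The time course has 2 pairs per time and is not covered by that check. With the replicate block 0.0% rose and 0.0568% fell with SGC0946 in PBS. The 2 against 2 libraries of the time course correlated at 0.48 at 10 min and at -0.42 to -0.55 at 30 min to 5 h. Whether these samples were paired is not given in the labels. The crossed pairing gave 5.42% rising and 2.88% falling at 1 h.

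Leaving out 1 library at a time gave 0.621% to 1.13% rising and 0.0% to 0.0565% falling at 30 min, and 0.282% to 0.452% falling at 1 h. For SGC0946 in PBS it gave 0.0% to 0.114% rising and 0.0% to 0.17% falling, in MSUc 3.75% to 6.76% and 7.72% to 13.5%, and in the interaction 0.0% to 0.17% and 0.0% to 0.0568%. For Tfe3KO 2.89% to 4.09% rose, for TfebTg 2.92% to 3.91% rose and 1.11% to 2.51% fell, and for Bhlhe41 0.0% to 1.5% rose and 0.0% to 0.809% fell. Stricter score thresholds were not run, because every site has the same score.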
